A study of Saccharomyces cerevisiae with 12 samples.

Results

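The genes described here are 36 genes of the budding yeast Saccharomyces cerevisiae that charge tRNA with amino acids or carry protein synthesis forward. They are the cytosolic aminoacyl-tRNA synthetases (21 genes), translation elongation factors (8 genes), and initiation factors with the poly(A)-binding protein (7 genes). They were chosen by systematic name from the 5880 genes listed in the deposited comparison table. The choice used no cut on measured values, but earlier results of these data were known. Of the 36 genes, 34 had array values. The elongation factor gene EFT1 (YOR133W) and the initiation factor gene TIF1 (YKR059W) are among 103 rows without values, and their partner copies EFT2 and TIF2 were measured.

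The strains were fhf1, fhf2 and fhf3, mutants raised by UV light that ferment maltose fast, and their wild type (WT). All are of strain Y55 (JT20150, MAT-alpha MAL1 SUC1), so the controls carry the same mating type and sugar loci. Each strain was grown in 3 separate cultures in yeast extract and peptone with 20% maltose, stirred and semi-aerobic, 200 mL at 22 °C, from pre-cultures on glucose, and all 12 cultures were harvested on day 2. Polyadenylated RNA was copied to cDNA, labelled with 1 dye and read on arrays with 8 probes per gene. Each mutant is 1 mutagenised strain, and with 1 day of sampling the strain and the stage of its fermentation cannot be told apart.

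An aminoacyl-tRNA synthetase joins an amino acid to its tRNA, and the enzymes fall into class I and class II by the fold of their catalytic core. Initiation factors bring the ribosome, the mRNA cap and the first tRNA together, and elongation factors deliver charged tRNA and move the ribosome along. In yeast, transcripts for this machinery and for ribosomal proteins are known to be abundant in growing cells and to decline when growth slows.

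Levels are log2 signals with the median gene of the same array subtracted, so a level of 1 means a signal 2 times that of the median gene. A gene is said to have risen or fallen where limma's moderated test gave a Benjamini-Hochberg adjusted p under 0.05 over 5769 genes, and such words mean relative to the median gene. Fold changes are on the log2 scale, mutant over WT, with the standard error (SE) of the fit to 12 arrays. The array medians before centring lay between 12.09 and 12.98, while the brightest gene of each array lay between 15.33 and 15.62. Before centring, the median over all genes of the log2 fold change against WT was 0.05 for fhf1, 0.10 for fhf2 and -0.28 for fhf3. Arrays of 1 strain correlated over all genes at 0.964 to 0.991, and fhf3 arrays with those of other strains at 0.858 to 0.901. The arrays are labelled MAT-alpha, and the mean log2 signal as deposited of 3 alpha-specific genes was 13.14 to 13.68 in fhf3 arrays and 12.58 to 13.62 in WT arrays. That of 7 a-specific genes was 9.47 to 9.70 in fhf3 arrays and 10.31 to 11.07 in WT arrays. In fhf3 5 of the 7 a-specific genes fell, beside 20.4% of all genes, with a median log2 fold change of -0.65 (-1.03 without centring). Of the 3 alpha-specific genes 2 rose, beside 27.2% of all genes (1 without centring, beside 1.98%). The part of these markers in the fold changes of the 34 genes was not tested. RNA came from whole cultures, so fewer cells with a transcript and less of it per cell cannot be told apart.

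In fhf3 most genes of tRNA charging and elongation were higher than in WT relative to the median gene of the array. No rise was called when the arrays were left uncentred. Of 34 measured genes 20 rose and 1 fell, and 13 did not pass the test. Among all genes tested 27.2% rose and 20.4% fell in the same comparison, and the share of the 34 genes that rose was 58.8%. The median log2 fold change of the 34 genes was 0.37, beside 0.10 for all genes, and it was -0.014 beside -0.28 when the arrays were left uncentred. Without centring 1.98% of all genes rose and 22.8% fell, and 0 of the 34 rose and 2 fell. The median level of the 34 genes was 1.02, 1.10 and 1.06 in the fhf3 arrays, against 0.74, 0.80 and 0.78 in the WT arrays. In fhf1 limma called 0 of the 34 genes higher and 5 lower, beside 7.31% and 9.55% of all genes. In fhf2 it called 0 higher and 1 lower, beside 1.98% and 4.37% of all genes. All 3 comparisons share the WT arrays.

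**Figure D1:**
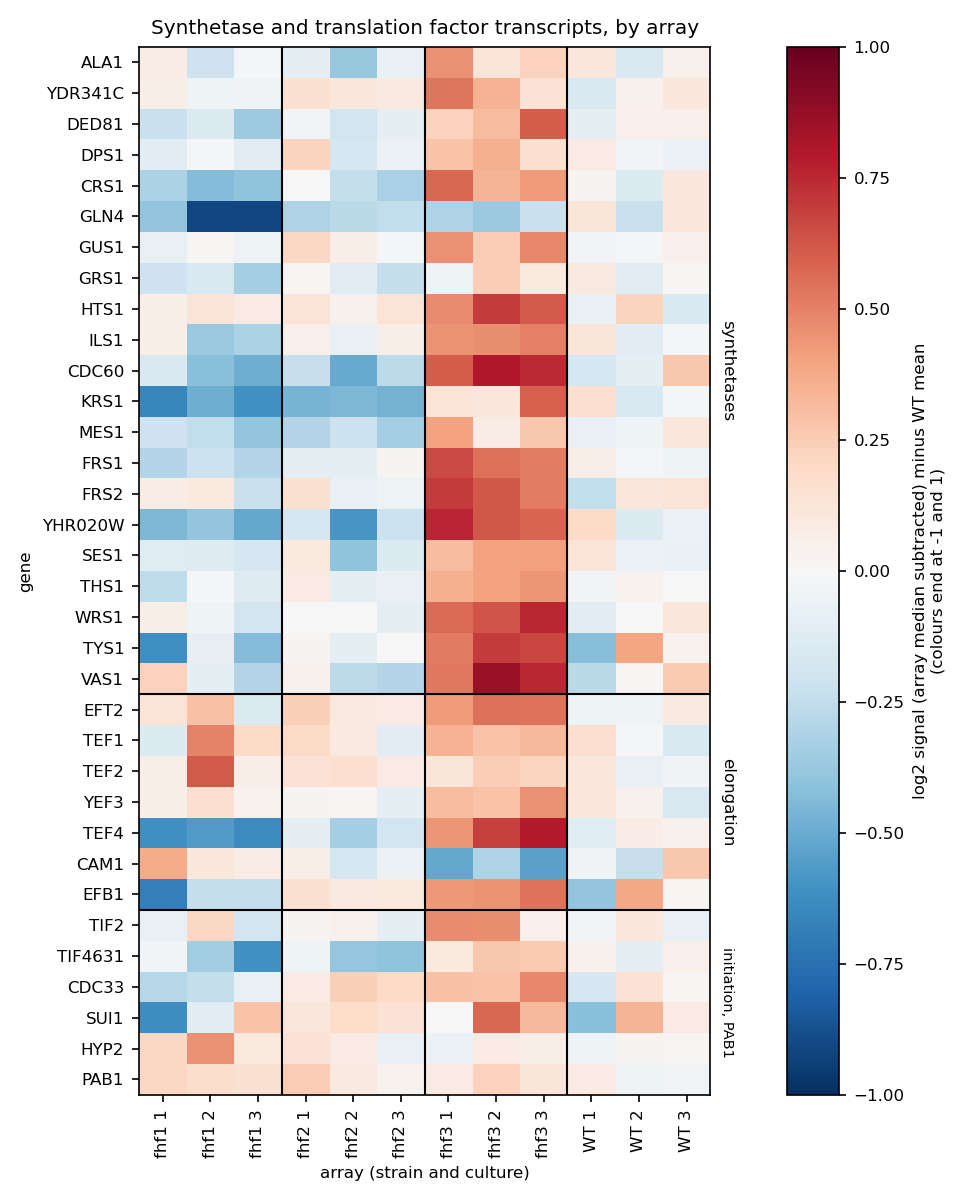
Level of each of the 34 measured genes in each of 12 arrays, as log2 signal centred on the array median minus the WT mean, with 3 cultures a strain in columns and genes in rows by role. The fhf3 columns are above WT in most rows, with CAM1 and GLN4 as rows below it. This holds for centred arrays, since without centring the median fold change of the 34 genes in fhf3 is -0.014.

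Most synthetases rose in fhf3. Of 21 genes 15 rose, 0 fell and 6 did not pass the test, beside 27.2% of all genes risen and 20.4% fallen. At an unadjusted p under 0.05 in limma 17 were higher and 1 lower, beside 54.3% of all genes in either direction. The median log2 fold change was 0.40, which was 0.02 without centring. Both classes took part, with 8 of 10 class I genes and 7 of 11 class II genes risen. In 17 of the 21 genes all fhf3 arrays lay above all WT arrays, in 1 they lay below, and the shares for all genes were 32.1% and 22.7%.

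CDC60, which charges leucine tRNA, had levels of 0.88, 1.07 and 1.02 in fhf3 cultures, against 0.09, 0.18 and 0.54 in WT cultures. The fhf3 cultures were all above the highest WT culture, WT replicate 3. The log2 fold change was 0.72 ± 0.14 (SE), a fold of 1.64, with limma adjusted p = 0.000341. The valine enzyme gene VAS1, whose transcripts serve both the cytosol and the mitochondria, had levels of 0.74, 1.08 and 0.96 in fhf3 and -0.06, 0.23 and 0.47 in WT. No fhf3 culture overlapped with WT, although WT cultures were spread more widely (SD 0.26, n = 3) than those of fhf3 (SD 0.17, n = 3). VAS1 rose by 0.71 ± 0.16 on the log2 scale (SE; limma adjusted p = 0.00123).

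YHR020W, the gene listed for prolyl-tRNA synthetase, gave 0.86, 0.72 and 0.68 in fhf3 and 0.29, -0.03 and 0.04 in WT. WRS1, for tryptophan, gave 0.55, 0.61 and 0.74 in fhf3 and -0.13, -0.01 and 0.10 in WT. In both genes the groups were apart by more than the range within either. The log2 fold changes were 0.65 ± 0.13 for YHR020W and 0.65 ± 0.11 for WRS1 (SE; limma adjusted p = 0.000488 and 0.000164).

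Phenylalanyl-tRNA synthetase is built from the products of FRS1 and FRS2, and both genes rose. FRS1 had levels of 1.47, 1.37 and 1.33 in fhf3 and 0.87, 0.80 and 0.77 in WT, and FRS2 had 2.05, 1.98 and 1.87 in fhf3 and 1.11, 1.47 and 1.49 in WT. Their log2 fold changes, 0.57 ± 0.11 and 0.61 ± 0.13 (SE), differed from each other by less than either SE. Within an array the difference of the FRS1 and FRS2 signals averaged -0.58 ± 0.04 in fhf3 and -0.54 ± 0.27 in WT (SD, n = 3 each). From such a difference a log2 offset shared by all genes of the array drops out.

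The histidine enzyme gene HTS1, which also supplies mitochondria, had a log2 fold change of 0.60 ± 0.12 (SE; limma adjusted p = 0.000513), and the tyrosine enzyme gene TYS1 one of 0.63 ± 0.17 (limma adjusted p = 0.0054). TYS1 was the gene with the widest WT cultures among the 34, at -0.99, -0.17 and -0.53, while fhf3 cultures gave -0.04, 0.14 and 0.11, all above the highest WT culture. Smaller rises were those of ILS1 for isoleucine (0.47), CRS1 for cysteine (0.45), THS1 for threonine (0.40) and GUS1 for glutamate (0.40). The calls of these genes and of the 6 in the paragraphs on leucine to phenylalanine above held in each of 12 fits that left out 1 array, and under quantile and cyclic loess normalization, but all were lost without centring, as were 20 of the 21 calls in fhf3.

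DED81 for asparagine, SES1 for serine and YDR341C for arginine rose by smaller amounts, at 0.38, 0.38 and 0.34. DED81 lost its call without fhf3 replicate 3 or WT replicate 1 (adjusted p up to 0.0872). SES1 lost it without fhf3 replicate 2, fhf3 replicate 3, WT replicate 2 or WT replicate 3 (up to 0.0679), and YDR341C without fhf3 replicate 1, fhf3 replicate 2 or WT replicate 1 (up to 0.142). Without centring the log2 fold changes of SES1 and YDR341C turned to -0.00088 and -0.037.

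Among the 6 synthetases that did not pass the test in fhf3, 5 had positive values on centred arrays, and all 5 turned negative without centring, at -0.28 to -0.10. These were KRS1 for lysine (0.28, 95% interval 0.0012 to 0.56), ALA1 for alanine (0.27, -0.00051 to 0.55), DPS1 for aspartate (0.27, 0.01 to 0.52), MES1 for methionine (0.25, -0.00056 to 0.49) and GRS1 for glycine (0.10, -0.15 to 0.35). The upper ends of these intervals all lie above 0.34, the smallest rise that passed among the synthetases. ALA1 and GRS1 are, like HTS1 and VAS1, genes that serve cytosol and mitochondria alike.

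GLN4, the glutamine enzyme gene, was the 1 synthetase gene of the 21 with a log2 fold change below 0 in fhf3 on centred arrays, while 8 were below 0 without centring. Its levels were 0.35, 0.29 and 0.43 in fhf3 cultures, against 0.78, 0.43 and 0.76 in WT cultures, and fhf3 replicate 3 lay just under WT replicate 2. The log2 fold change was -0.30 ± 0.14 (SE) and did not pass (limma adjusted p = 0.0862), but it did under cyclic loess normalization, at -0.35 (adjusted p = 0.0445), and without centring, at -0.68 (adjusted p = 0.0454). In fhf2 it gave 0.35, 0.39 and 0.41, and all 3 fhf2 cultures lay below the lowest WT culture.

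**Figure D2:**
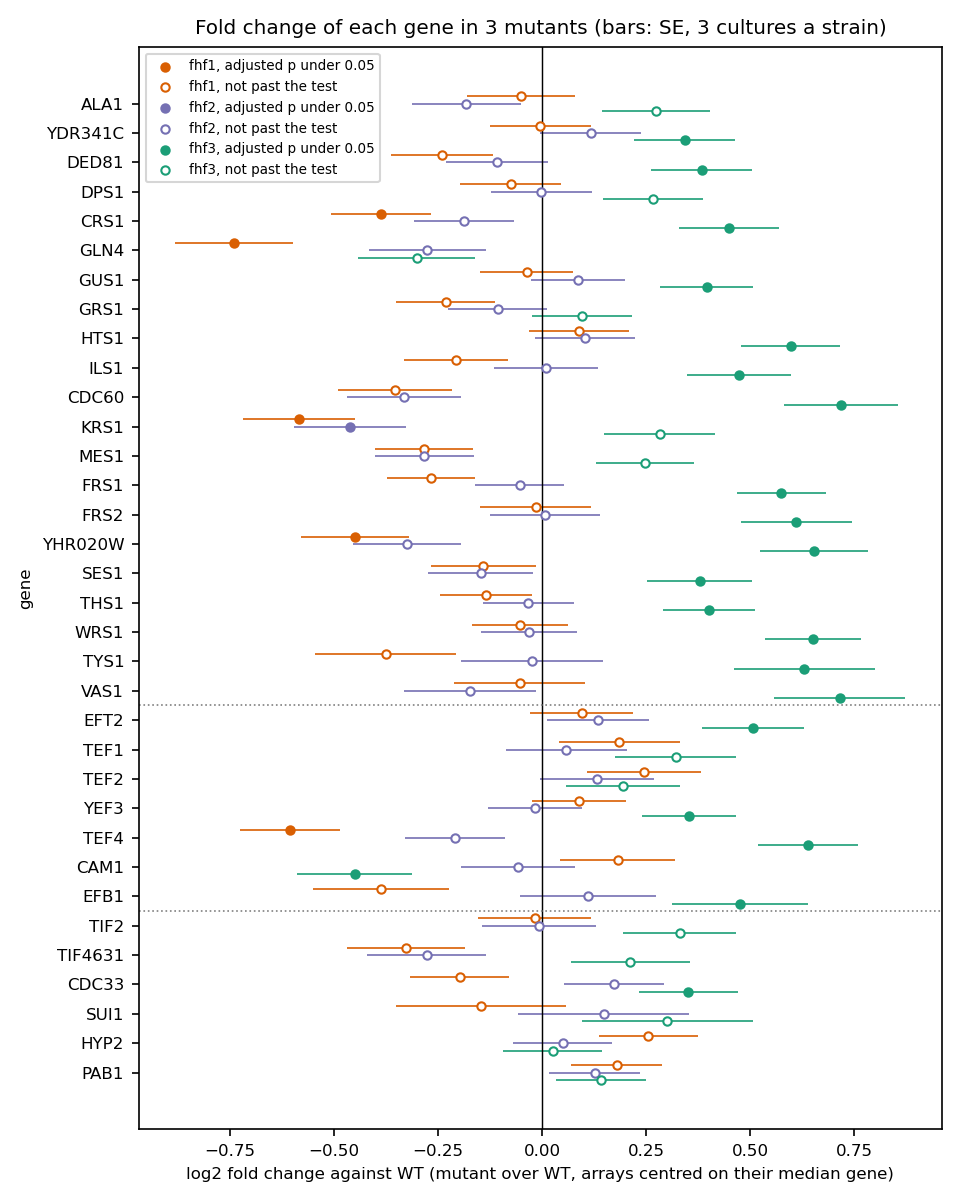
Log2 fold change against WT of each of the 34 genes in fhf1, fhf2 and fhf3, with SE bars, for arrays centred on their median gene, and filled points past the test. In fhf3, 20 genes rose and 1 fell, against 0 and 5 in fhf1 and 0 and 1 in fhf2, and without centring the median of the 34 genes in fhf3 is -0.014.

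In fhf1 the 5 genes that passed the test had all fallen. They were GLN4, KRS1, YHR020W and CRS1 of the synthetases and the elongation factor gene TEF4. At an unadjusted p under 0.05 the limma test gave 1 higher and 11 lower genes, beside 30.3% of all genes in either direction. In 2 genes all fhf1 arrays lay above all WT arrays and in 10 below, beside 15.9% and 13.8% of all genes. The median log2 fold change of the 34 genes was -0.14, and -0.13 without centring, where 0 of them passed.

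GLN4 had levels of 0.26, -0.25 and -0.25 in fhf1, against 0.78, 0.43 and 0.76 in WT, and the groups did not overlap. GLN4 had the lowest log2 fold change of the 34 genes in fhf1, -0.74 ± 0.14 (SE; limma adjusted p = 0.00142). KRS1 gave -1.26, -1.09 and -1.21 in fhf1, against -0.44, -0.76 and -0.61 in WT, again without overlap. Its log2 fold change was -0.58 ± 0.13 (SE; limma adjusted p = 0.00588). YHR020W and CRS1 had log2 fold changes of -0.45 ± 0.13 and -0.39 ± 0.12 (SE; limma adjusted p = 0.023 and 0.0347). YHR020W lost its call without fhf1 replicate 3 or WT replicate 1 (adjusted p up to 0.0911), and CRS1 without fhf1 replicate 2, fhf1 replicate 3, WT replicate 1 or WT replicate 3 (up to 0.125). Without fhf1 replicate 3 the count of fallen genes was 3.

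The synthetases that did not pass in fhf1 mostly had values below 0, with 20 of all 21 below 0 and a median of -0.21. CDC60 was at -0.35 (95% interval -0.64 to -0.07), TYS1 at -0.38 (-0.73 to -0.02) and MES1 at -0.28 (-0.53 to -0.04). Cyclic loess normalization, which takes out a trend of the fold change with signal, called 9 genes in fhf1, adding CDC60, MES1, FRS1 and EFB1. The 1 gene above 0 was HTS1, at 0.09 (-0.16 to 0.34).

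In fhf2 the only call was KRS1, the lysine enzyme gene, which fell. All fhf2 cultures, at -1.07, -1.05 and -1.07, lay below all WT cultures, at -0.44, -0.76 and -0.61. KRS1 had a log2 fold change of -0.46 ± 0.13 (SE; limma adjusted p = 0.0472). At an unadjusted p under 0.05 limma gave 0 higher and 4 lower genes of the 34, beside 19.3% of all genes in either direction. The call was lost under quantile and cyclic loess normalization, and without fhf1 replicate 2, fhf2 replicate 1, fhf2 replicate 2, fhf2 replicate 3, fhf3 replicate 1, fhf3 replicate 2, WT replicate 1 or WT replicate 3 (adjusted p up to 0.161). The median log2 fold change of the 34 genes was -0.03, and 0.045 without centring. In 5 genes, all synthetases, every fhf2 array lay below every WT array, beside 12.5% of all genes, and in 0 genes above, beside 13.5%. CDC60 had a log2 fold change of -0.33 (95% interval -0.62 to -0.04) and YHR020W one of -0.32 (-0.60 to -0.05).

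**Figure D3:**
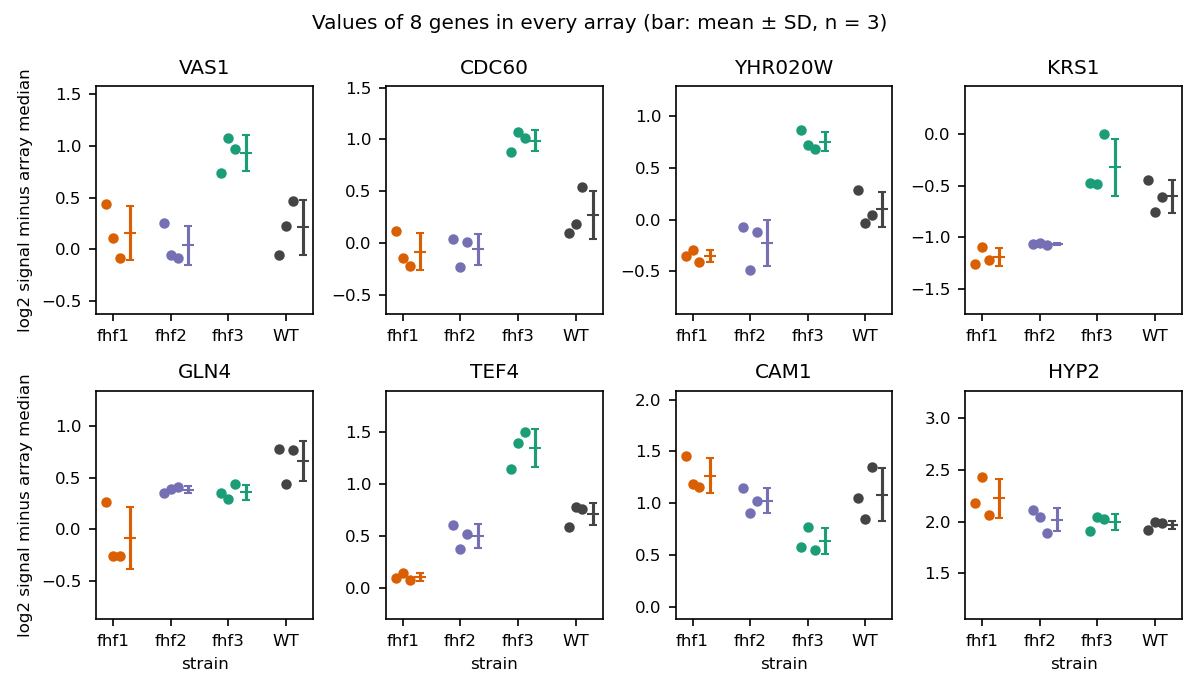
Levels (log2 signal minus array median) of 8 genes in every array of fhf1, fhf2, fhf3 and WT, with mean and SD (n = 3), each panel spanning the same height. VAS1, CDC60, YHR020W and TEF4 are highest in fhf3, GLN4 and TEF4 lowest in fhf1, and CAM1 lowest in fhf3, all relative to the array median.

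Of the elongation factors, 4 of 7 measured genes rose and 1 fell in fhf3, beside 27.2% and 20.4% of all genes. Without centring 0 rose and 1 fell. Their median log2 fold change was 0.35, and -0.03 without centring. Elongation factor 1B exchanges the nucleotide on elongation factor 1A, and its gamma subunit is made from a pair of genes, TEF4 and CAM1. TEF4 had levels of 1.15, 1.39 and 1.50 in fhf3, against 0.59, 0.78 and 0.76 in WT, with no overlap. CAM1 had 0.58, 0.78 and 0.55 in fhf3, against 1.05, 0.85 and 1.35 in WT, with no overlap in the other direction. TEF4 rose (0.64 ± 0.12, limma adjusted p = 0.000293) and CAM1 fell (-0.45 ± 0.14, limma adjusted p = 0.0122). CAM1 lost its call without WT replicate 3 (adjusted p 0.0869), while without centring it was called at -0.83 (adjusted p = 0.0113) and TEF4, at 0.26, was not.

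TEF4 fell in fhf1, with levels of 0.10, 0.15 and 0.07 in fhf1 against 0.59, 0.78 and 0.76 in WT (-0.60 ± 0.12, limma adjusted p = 0.00194), and CAM1 did not pass, at 0.18 (95% interval -0.11 to 0.47). A log2 offset shared by all genes of an array drops out of a difference within it. Taken within each array, TEF4 minus CAM1 was 0.58, 0.62 and 0.95 in fhf3 and -0.46, -0.07 and -0.60 in WT. It was -1.36, -1.04 and -1.08 in fhf1 and -0.54, -0.53 and -0.51 in fhf2. The fhf3 cultures were all above the other 9 and the fhf1 cultures all below them, and the pair was singled out after its values were seen, so no test is given. Such a difference shows unequal change of the genes, not which of them changed.

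**Figure D4:**
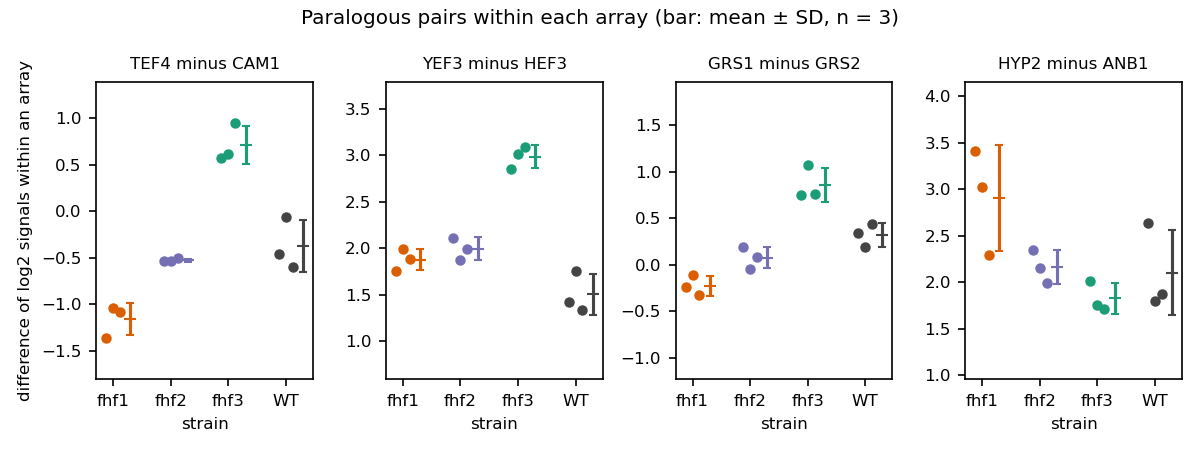
Difference of log2 signals within each array for 4 gene pairs in fhf1, fhf2, fhf3 and WT, with mean and SD (n = 3). TEF4 minus CAM1, YEF3 minus HEF3 and GRS1 minus GRS2 are highest in fhf3, and HYP2 minus ANB1 overlaps between fhf3 and WT. A log2 offset shared by all genes of an array drops out of these differences.

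EFB1, the catalytic subunit of the same exchange factor, gave 1.87, 1.88 and 1.97 in fhf3 and 1.03, 1.82 and 1.44 in WT. WT replicate 1 was far below the other WT cultures, and the groups did not overlap. EFB1 rose by 0.47 ± 0.16 (SE; limma adjusted p = 0.023), and the call was lost without fhf3 replicate 3, WT replicate 1 or WT replicate 3 (adjusted p up to 0.151) and under quantile and cyclic loess normalization. EFT2, one of the genes for the translocation factor eEF2, gave 2.08, 2.21 and 2.20 in fhf3 and 1.61, 1.61 and 1.75 in WT. It rose by 0.51 ± 0.12 (SE; limma adjusted p = 0.00253), a call kept under each of the 12 leave-outs. Its copy EFT1 encodes the same protein and had no values here, and the array may not separate the copies.

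YEF3, the fungus-specific factor eEF3, gave 1.93, 1.90 and 2.07 in fhf3 and 1.73, 1.66 and 1.46 in WT, without overlap. It rose by 0.35 ± 0.11 (limma adjusted p = 0.0157), and the call was lost without fhf3 replicate 3 or WT replicate 3 (adjusted p up to 0.0841) and under quantile and cyclic loess normalization, with the value turning to -0.027 without centring. Its paralogue HEF3, which is not among the 36 genes, fell, at -1.13 ± 0.12 (limma adjusted p = 8.17e-07). Within an array YEF3 minus HEF3 averaged 2.98 ± 0.12 in fhf3 and 1.50 ± 0.22 in WT (SD, n = 3 each).

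TEF1 and TEF2 encode the same elongation factor 1A, and neither passed in fhf3. TEF1 was at 0.32 (95% interval 0.02 to 0.63) and TEF2 at 0.19 (-0.09 to 0.48). The 3 TEF1 cultures of fhf3, 2.46, 2.40 and 2.44, lay above those of WT, 2.28, 2.09 and 1.96. Among the fhf1 cultures, replicate 2 stood highest for both genes, at 2.61 for TEF1 and 2.68 for TEF2, and this array had the lowest median signal of the fhf1 arrays (12.15). The part of the array's signal scale in these values was not tested.

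Of the initiation factors and PAB1, 1 of 6 measured genes rose in fhf3, a share of 16.7% beside 27.2% of all genes, and limma called 0 lower, also at an unadjusted p under 0.05, with a median log2 fold change of 0.26, and -0.12 without centring. In 3 genes all fhf3 arrays lay above all WT arrays, beside 32.1% of all genes. Without centring and under both other normalizations limma called 0 of the 6 in fhf3. In fhf1 and fhf2 limma called 0 of the 6, also under cyclic loess normalization. At an unadjusted p under 0.05 the counts were 1 higher and 1 lower in fhf1 and 0 in fhf2. The shares of all genes at that threshold, in either direction, were 30.3% in fhf1, 19.3% in fhf2 and 54.3% in fhf3.

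The gene that rose was CDC33, the cap-binding factor eIF4E, with levels of 1.78, 1.77 and 1.97 in fhf3 and 1.32, 1.64 and 1.51 in WT, without overlap. CDC33 rose by 0.35 ± 0.12 (SE; limma adjusted p = 0.0216). The call was lost without fhf3 replicate 3 or WT replicate 1 (adjusted p up to 0.0935) and under quantile and cyclic loess normalization, and turned to -0.028 without centring. TIF2, the helicase eIF4A, gave 1.97, 1.96 and 1.54 in fhf3 and 1.47, 1.60 and 1.42 in WT, where fhf3 replicate 3 fell among the WT values, and the test missed the threshold (0.33, 95% interval 0.04 to 0.62). TIF4631, the scaffold eIF4G, was at 0.21 (-0.09 to 0.51), and SUI1, the start-site factor eIF1, at 0.30 (-0.13 to 0.73). SUI1 had widely spread cultures, with 0.83, 1.39 and 1.14 in fhf3 and 0.40, 1.16 and 0.90 in WT.

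HYP2, the gene for eIF5A, which helps ribosomes over stretches such as runs of proline, and PAB1, which binds the poly(A) tail, had values close to 0 in fhf3 on centred arrays, and -0.35 and -0.24 without centring. HYP2 gave 1.91, 2.05 and 2.03 in fhf3 and 1.92, 1.99 and 1.99 in WT, and its log2 fold change of 0.03 had an interval of -0.22 to 0.27. PAB1 gave 1.01, 1.16 and 1.05 in fhf3 and 1.01, 0.88 and 0.90 in WT, at 0.14 (-0.09 to 0.37). In fhf1 all HYP2 cultures, at 2.18, 2.43 and 2.07, lay above the WT cultures, without passing the test (0.25, limma adjusted p = 0.154). The paralogue of HYP2, ANB1, which is known as its low-oxygen form, had a log2 fold change of 0.30 in fhf3 (limma adjusted p = 0.285).

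The mutants were also set against each other. Against fhf1, all 21 synthetases rose in fhf3, and over the 34 genes 27 rose and 1 fell, beside 25.1% and 23.5% of all genes. The median log2 fold change of the 34 genes was 0.52, and 0.14 without centring. In 27 genes all fhf3 arrays lay above all fhf1 arrays and in 2 below, beside 26.9% and 26.5% of all genes. The largest values were those of TEF4 (1.24 ± 0.12), YHR020W (1.10 ± 0.13), CDC60 (1.07 ± 0.14) and TYS1 (1.01 ± 0.17), with limma adjusted p of 1.5e-07, 1.71e-06, 4.58e-06 and 8.91e-05. CAM1 fell (-0.63 ± 0.14, limma adjusted p = 0.000989). GLN4, which did not pass in fhf3 against WT, rose against fhf1 (0.44 ± 0.14, limma adjusted p = 0.0156), a call lost without fhf1 replicate 2, fhf1 replicate 3 or fhf3 replicate 3 (adjusted p up to 0.0756). Of the 28 calls 21 held in all 12 leave-outs and under both other normalizations, while 24 of the 28 were lost without centring. The others were GLN4, ALA1, YDR341C, DPS1, GRS1, EFT2 and TIF2, and without centring ALA1, YDR341C, DPS1, GRS1 and TIF2 turned sign.

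Against fhf2, 21 of the 34 genes rose in fhf3 and 1 fell, beside 24.5% and 22% of all genes, and 17 of these were synthetases. The median log2 fold change was 0.44, and -0.0075 without centring. In 25 genes all fhf3 arrays lay above all fhf2 arrays and in 1 below, beside 32.7% and 27.5% of all genes. CDC60 (1.05 ± 0.14, limma adjusted p = 6.89e-06), YHR020W (0.98 ± 0.13, 8.08e-06) and VAS1 (0.89 ± 0.16, 0.000175) led the synthetases, and TEF4 (0.85 ± 0.12, 1.66e-05) the factors. KRS1 rose by 0.74 (limma adjusted p = 0.000196), whereas GLN4 was at -0.03 (95% interval -0.32 to 0.27). Of the 22 calls 17 held in all 12 leave-outs and under both other normalizations, the others being ALA1, GUS1, EFT2, YEF3 and CAM1. Without centring 21 of the 22 calls were lost, all but that of CAM1, and GUS1, THS1, EFT2 and YEF3 turned sign.

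Between fhf1 and fhf2 limma called 0 of the 34 genes, beside 0.641% of all genes higher and 1.04% lower in fhf1. At an unadjusted p under 0.05 it gave 0 higher and 4 lower genes, beside 14% of all genes in either direction. In 2 genes all fhf1 arrays lay above all fhf2 arrays and in 7 below, beside 10.5% and 9.2% of all genes. The largest differences were TEF4 at -0.40 (95% interval -0.65 to -0.14), EFB1 at -0.50 (-0.84 to -0.16) and GLN4 at -0.46 (-0.76 to -0.17), and GLN4 was called when fhf1 replicate 1 was left out. These comparisons share the arrays of the mutants they have in common.

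The test deposited by the authors asks whether a change exceeds 2-fold. In the authors' deposited table it called 0 of the 34 genes in all 3 mutants, also at an unadjusted p under 0.05, beside 11, 9 and 169 of all genes with array values, which is 0.191%, 0.156% and 2.93%. The largest size of a log2 fold change among the 34 genes in the authors' deposited table, which is not centred, was 0.73 for fhf1, 0.39 for fhf2 and 0.83 for fhf3.

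**Figure D5:**
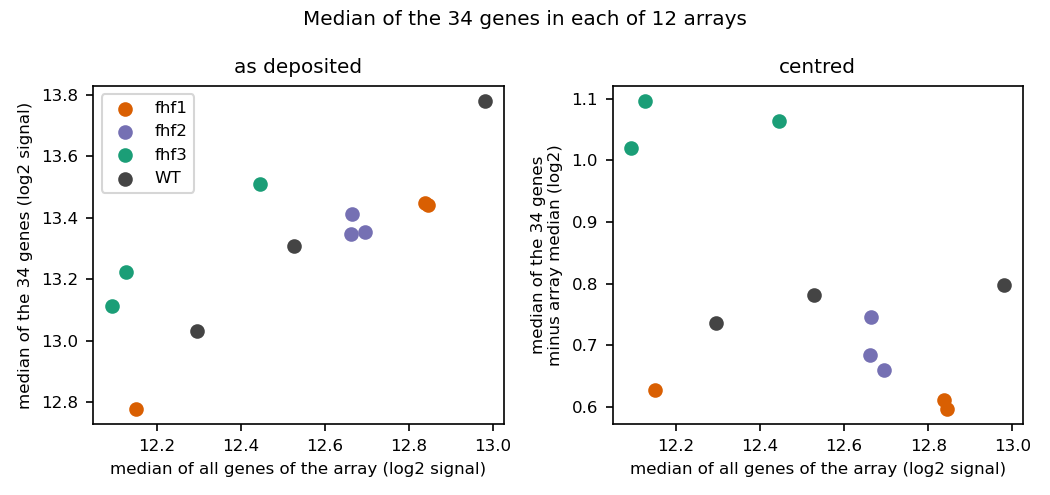
Median of the 34 genes in each array against the median of all genes of that array, as deposited (left) and after the array median is subtracted (right), by strain. After centring the 3 fhf3 arrays lie at 1.02 to 1.10 and the WT arrays at 0.74 to 0.80, while the deposited medians of the 34 genes overlap between the strains.

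The plot of medians against array medians shows where the choice of scale enters. The fhf3 arrays had medians of 12.09, 12.13 and 12.45, against 12.30, 12.98 and 12.53 in WT. As deposited, the median of the 34 genes was 13.11, 13.22 and 13.51 in fhf3 arrays and 13.03, 13.78 and 13.31 in WT arrays, so the groups overlapped. The fhf1 array with a median of 12.15 had a centred median of 0.63 for the 34 genes, close to the 0.61 and 0.60 of the brighter fhf1 arrays. The part of the signal scale of the arrays in the fold changes was not tested.

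Around these genes, other parts of the translation machinery were listed and described by the same test. In fhf3 the initiation factors eIF2 and eIF2B, which bring in the first tRNA and recycle its carrier, had 7 of 8 genes risen and 0 fallen, beside 27.2% and 20.4% of all genes, with a median of 0.42 (0.04 without centring). Quantile and cyclic loess normalization called 5 of the 8 higher, and without centring limma called 0. SUI3 was at 0.68 ± 0.12, GCD2 at 0.62 ± 0.13, GCD1 at 0.49 ± 0.13 and GCN3 at 0.48 ± 0.12. The list of eIF3 and other initiation factors had 6 of 13 risen and 0 fallen, beside the same shares, with RPG1 (0.46), HCR1 (0.45), PRT1 (0.43) and TIF6 (0.42) as the largest, and a median of 0.30 (-0.08 without centring). Of these 13, both other normalizations called 4 higher, and no centring left 0 called.

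Termination and recycling genes included DOM34, which frees stalled ribosomes, at 0.84 ± 0.16, RLI1, which splits ribosomes after termination, at 0.74 ± 0.12, and the release factor gene SUP45 at 0.69 ± 0.12. RLI1 fell in fhf1 (-0.45 ± 0.12, limma adjusted p = 0.0185), a call lost without centring (-0.44, adjusted p = 0.695). Of this list 4 of 7 genes rose and 1, HEF3, fell in fhf3, beside 27.2% and 20.4% of all genes, with a median of 0.38. Without centring 0 rose and HEF3 fell, and the median was -0.0040. Genes that modify the factors had 5 of 6 risen and 0 fallen in fhf3, beside 27.2% and 20.4% of all genes, with a median of 0.48. Without centring 0 of 6 rose, beside 1.98% of all genes, with a median of 0.10. DYS1 and LIA1, which make the hypusine of eIF5A, were at 0.90 ± 0.15 and 0.56 ± 0.13, and DPH1, for the diphthamide of eEF2, at 0.57 ± 0.12. LIA1 fell in fhf1 (-1.01 ± 0.13, limma adjusted p = 2.91e-05) and in fhf2 (-0.61 ± 0.13, limma adjusted p = 0.00756), while HYP2, the gene of the protein it modifies, passed in none of these comparisons. Without centring the LIA1 call was kept in fhf1 and lost in fhf2 (-0.54, adjusted p = 0.934) and in fhf3 (0.18, adjusted p = 0.687).

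Most synthetases of the mitochondria fell in fhf3. Of 14 genes 9 fell and 1 rose, MSW1 for tryptophan (0.35 ± 0.12, limma adjusted p = 0.0183), beside 20.4% of all genes fallen and 27.2% risen, and the median was -0.33, beside 0.40 for the 21 cytosolic genes. NAM2 for leucine was at -0.74 ± 0.17, ISM1 for isoleucine at -0.57 ± 0.14, AIM10 for proline, a role read from similarity, at -0.48 ± 0.15 and MSF1 for phenylalanine at -0.47 ± 0.11. The fallen genes numbered 9 without centring and under cyclic loess normalization and 8 under quantile normalization. Without centring the median was -0.71 and MSW1, at -0.03, was no longer called. In fhf1 and fhf2 limma called 0 of the 14, with medians of 0.05 and 0.20. At an unadjusted p under 0.05 it gave 1 higher and 1 lower in fhf1 and 3 higher and 0 lower in fhf2. The shares of all genes at that threshold, in either direction, were 30.3% and 19.3%. Quantile normalization called 2 of the 14 higher in fhf1, beside 7.73% of all genes. The second glycine enzyme gene, GRS2, fell in fhf3 (-0.44 ± 0.11, limma adjusted p = 0.00374), and GRS1 minus GRS2 within an array averaged 0.86 ± 0.18 in fhf3 and 0.32 ± 0.13 in WT (SD, n = 3 each).

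Subunits and factors of RNA polymerase III, which makes tRNA, had 7 of 12 genes risen and 0 fallen in fhf3, with RPC17 (1.25 ± 0.15) and RPC37 (0.67 ± 0.13) largest, beside 27.2% and 20.4% of all genes, and a median of 0.35 (-0.03 without centring). Without centring 1 of them rose, RPC17, quantile normalization called 9 higher, and cyclic loess normalization 7 higher and 1 lower. Of 4 genes of the response to amino acid starvation 1 rose in fhf3, beside 27.2% of all genes, and without centring limma called 0. It was GCN20, a helper of the kinase GCN2 (0.77 ± 0.14, limma adjusted p = 0.000258). GCN1 was at 0.31 (95% interval -0.0041 to 0.62), GCN2 at -0.19 (-0.60 to 0.22), and GCN4, the activator of that response, was at 0.31 (0.04 to 0.59). Of 4 genes for repressors of translation and ribosome preservation, CAF20, which binds eIF4E, and TMA19 rose, beside 27.2% of all genes. Their log2 fold changes were 0.51 ± 0.18 and 0.52 ± 0.13 (limma adjusted p = 0.0304 and 0.00281). Without centring limma called 0 of the 4, and the CAF20 call was also lost under cyclic loess normalization (limma adjusted p = 0.0616). Of 132 cytosolic ribosomal protein genes 64 rose and 0 fell in fhf3, beside 27.2% and 20.4% of all genes. Their median was 0.40 (0.02 without centring). In fhf1 80 of them fell and 0 rose, beside 9.55% and 7.31% of all genes. The median was -0.52, beside -0.21 for the synthetases. In fhf2 27 fell and 0 rose, beside 4.37% and 1.98% of all genes. Here the median was -0.38, beside -0.11 for the synthetases. Without centring the ribosomal protein genes called lower were 17 in fhf1 and 1 in fhf2, beside 2.08% and 0.797% of all genes. In fhf3 limma then called 0 of them, beside 1.98% of all genes higher and 22.8% lower. Cyclic loess normalization called 37 higher in fhf3, beside 22.7% of all genes. At an unadjusted p under 0.05 limma gave 0 lower ribosomal protein, eIF2 and eIF3 list genes and 1 lower RNA polymerase III gene in fhf3, and 1 and 0 higher ribosomal protein genes in fhf1 and fhf2. The shares of all genes at that threshold, in either direction, were 30.3% in fhf1, 19.3% in fhf2 and 54.3% in fhf3.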

How the data were processed

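The labels' protocols describe 1-colour NimbleGen arrays of 3 separate cultures for each of 4 strains, and they also speak of hybridisation in triplicate, so whether repeat hybridisations were averaged is not settled. Replicates are the 3 cultures a strain. The authors deposited log2 signals, 1 per gene and array, and a table of log2 fold changes with a t score and p-values from a test against a 2-fold change. Per the submitters' processing notes limma was used, with no version. Background correction, normalization and probe summary are not given in the sources used. The deposited fold changes equal differences of group means of the log2 signals within 5e-08.

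The 5769 genes with values were centred on each array's median and fitted with limma 3.58.1 in R 4.3.3, 4 groups in 1 fit, two-sided, with Benjamini-Hochberg adjustment over all genes of a comparison. Intervals are at 95%. The number of arrays limits the precision. The fit was tested on simulated data. Symbols came from an R64 table, in which 5763 of 5769 names were found, used for names only. A further 8 rows of the comparison table are not analysed here. Alternatives were no centring, quantile and cyclic loess normalization, other variance models, a filter on dim genes, the replicate block, leaving out each array and only the 6 arrays compared. The genes, the lists and the rule for named genes were chosen with earlier results of these data known. The rule names all 36 genes and, of each list, up to 4 called genes with the largest change in a comparison. MSW1, ANB1 in fhf3 against WT, GCN1, GCN2, GCN4 and the gene pairs compared within arrays were chosen after their values were seen. The deviations of same-numbered cultures from their group means correlated at -0.24 to 0.45, over 0.1 in 10 of 18 pairs of strains and numbers. Those of differently numbered cultures correlated at -0.66 to 0.65. The main fit did not pair the cultures by number, and whether the numbers pair them is not settled.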

Additional observations from a re-analysis of the deposited data

How the results depend on the processing

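Without centring, the counts of called genes among the 34 were 0 in fhf1, 0 in fhf2 and 2 in fhf3 against WT, 4 in fhf3 against fhf1 and 1 in fhf3 against fhf2. The medians were then 0.045 in fhf2, -0.014 in fhf3, -0.12 for fhf1 against fhf2, 0.14 for fhf3 against fhf1 and -0.0075 for fhf3 against fhf2. Among the genes called on centred arrays, some values turned sign without centring. In fhf3 against WT these were YDR341C -0.037, SES1 -0.00088, YEF3 -0.027 and CDC33 -0.028, which the authors' deposited table shares. In fhf3 against fhf1 they were ALA1 -0.065, YDR341C -0.042, DPS1 -0.047, GRS1 -0.062 and TIF2 -0.042, and in fhf3 against fhf2 GUS1 -0.14, THS1 -0.019, EFT2 -0.079 and YEF3 -0.082. The array medians differ by up to 0.89, and the cause of that difference was not tested.

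Against WT, quantile normalization gave a median of -0.18 for fhf1, -0.074 for fhf2 and 0.32 for fhf3, with 0 calls in fhf2. Cyclic loess normalization gave medians of -0.23, -0.11 and 0.30 in fhf1, fhf2 and fhf3 and -0.10 for fhf1 against fhf2, with 9 calls in fhf1 and 0 in fhf2. Each gene's own variance gave 0 calls in fhf2, the 6 arrays alone 3 in fhf1, and the authors' 2-fold test 0 in fhf1, fhf2 and fhf3. Over all genes, no centring gave 114 higher and 1317 lower in fhf3, against 1567 and 1174 with centring. It gave 34 and 120 in fhf1 (422 and 551 centred), 13 and 46 in fhf2 (114 and 252), 267 and 1700 in fhf3 against fhf1 (1450 and 1356), 145 and 1862 in fhf3 against fhf2 (1416 and 1269), and 8 and 10 in fhf1 against fhf2 (37 and 60). For fhf1 against fhf2 quantile normalization gave 45 and 46, own variance 24 and 20, the filter on dim genes 22 and 27 and the replicate block 67 and 114. In fhf1 the 6 arrays alone gave 176 and 313, and in fhf2 own variance gave 61 and 137 and the filter 74 and 142.

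Leaving out 1 array in turn gave 3 to 7 calls against WT in fhf1, 0 to 1 in fhf2 and 17 to 24 in fhf3, 0 to 1 for fhf1 against fhf2, 22 to 28 for fhf3 against fhf1 and 18 to 24 for fhf3 against fhf2. The medians ranged from -0.15 to -0.12, -0.069 to -0.0094, 0.36 to 0.39, -0.12 to -0.0058, 0.50 to 0.56 and 0.39 to 0.49 in the same order. With the replicate number as a block, the calls in that order were 5, 1, 23, 0, 29 and 24. Whether the numbers pair the cultures is not settled.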
